A study of Homo sapiens with 18 samples.

Results

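Nuclear and imprinted long noncoding RNAs were followed through the neuronal differentiation of a human neuroblastoma cell line, SH-SY5Y, in which wild-type or variant ZNHIT3 had been delivered by lentivirus. The members were the 7 rows named MALAT1, NEAT1, MEG3, MIAT, H19, RMST and KCNQ1OT1 in a table of 26372 gene symbols. They were chosen by name. Values were FPKM, fragments scaled to transcript length and sequencing depth, from rRNA-depleted total RNA of 18 libraries, so levels are per length and may be compared between genes. A set of 3 libraries was made for each of 3 constructs at each of 2 times, day 0 and day 18.

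Long noncoding RNAs of this kind act as RNA and are not translated. NEAT1 is the scaffold of paraspeckles, MALAT1 accumulates in nuclear speckles beside splicing factors, and MIAT and RMST are nuclear RNAs studied in neurons and neural progenitors. H19, KCNQ1OT1 and MEG3 are imprinted RNAs: H19 and MEG3 are made from the maternal chromosome and KCNQ1OT1 from the paternal one, and each sits among imprinted coding genes whose parental expression is set at the same control regions.

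All cells received a construct made from the FUGW lentiviral plasmid, and no uninfected or empty-vector library was among the 18. The WT group carried wild-type ZNHIT3, the C14R group a substitution, and the third group a deletion that the treatment labels give as 251-254, 251-255 and 251-256 in replicates 1, 2 and 3, while the design text names 251-254 alone. Cells were infected 1 day after plating. Differentiation was started 48 hours later in serum-free neurobasal/B27 medium with 10 µM all-trans retinoic acid, 50 ng/ml BDNF, 2 mM dibutyryl cyclic AMP and 20 mM KCl, and lasted 18 days. The labels do not say that the libraries came from separate cultures, so p-values measure only the spread between these libraries, which may be technical. They name neither the promoter that drives the transgene nor any change to the cells' own ZNHIT3 gene.

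ZNHIT3 itself averaged 538 FPKM in WT, 424 in C14R and 303 in deletion at day 0, and 1153, 653 and 302 at day 18, with every variant library below every WT library of its day. Of 9 noradrenergic markers of the line, 8 had a mean of at least 1 FPKM at day 0 and 7 at day 18. TH lay between 0 and 1.02 FPKM over the 18 libraries. Their summed level was 783 to 821 FPKM at day 0 and 1039 to 1226 at day 18. The summed level of 7 mesenchymal markers was 247 to 277 at day 0 and 32.4 to 49.3 at day 18, that of 5 Schwann and glial markers 2.91 to 4.46 and 7.12 to 9.13, and that of 4 blood and endothelial markers at most 0.180, with HBB listed at 0 throughout. The absolute depth is unknown. Estimated from steps between low values, day 0 libraries had 59.0% to 85.3% and day 18 libraries 81.8% to 100% of the depth of the deepest one. A single small RNA, SNORD3A, made up 1.01% to 58.6% of the FPKM sum of a library. In bulk RNA, fewer cells of a type and less RNA per cell cannot be told apart, and the part of these marker, depth and SNORD3A differences in the results was not tested.

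The 7 members spanned a very wide range. NEAT1 had the highest mean over the 18 libraries, 151 FPKM, which placed it at rank 347 of all genes. MIAT followed with 25.7 FPKM and KCNQ1OT1 with 4.21 FPKM, while MEG3 and RMST averaged 0.0339 and 0.0293 FPKM. The order NEAT1, MIAT, KCNQ1OT1, MEG3 held in 18 of 18 libraries. MALAT1 and H19 were listed at 0 in all 18. Of the 2180 genes that GENCODE 29 annotates as long noncoding and that the table lists, 461 (21.1%) were at 0 throughout and 552 (25.3%) had the mean of at least 1 FPKM required for testing. NEAT1 ranked 11, MIAT 28 and KCNQ1OT1 204 among these long noncoding genes.

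**Figure D1:**
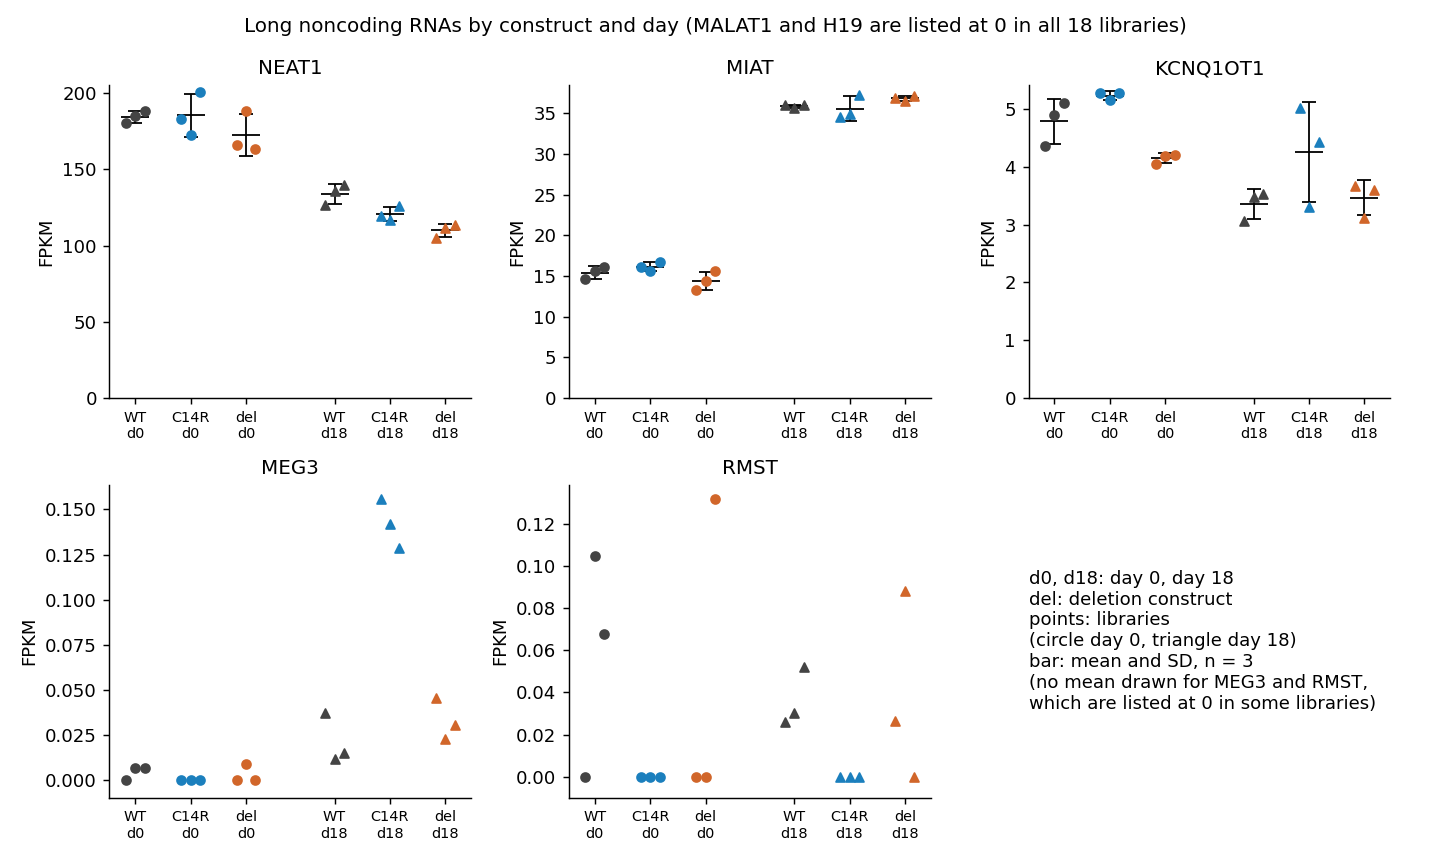
FPKM of 5 members in each library (vertical axes, linear, with a different range in each panel) by construct and day; points are libraries, bars the mean and SD of 3 libraries, drawn for NEAT1, MIAT and KCNQ1OT1 only. NEAT1 lies between 105 and 139 FPKM at day 18, below all day 0 libraries, MIAT between 34.5 and 37.3, above all of them, and MEG3 is highest in the 3 C14R libraries of day 18.

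Differential expression was tested with limma on log2(FPKM + 1), which understates changes of low genes, over 13785 genes. The same call rule, a Benjamini-Hochberg adjusted p under 0.05, applied throughout. The 3 members that entered the test all passed between day 18 and day 0 in WT, where 72.2% of all tested genes passed, 38.2% higher and 34.0% lower. They all passed in C14R too, beside 72.9% of genes (37.9% higher, 35.0% lower). In deletion 2 of the 3 passed, beside 73.0% of genes (38.6% higher, 34.4% lower). MIAT was the member that rose and NEAT1 and KCNQ1OT1 were those that fell. The members' counts were thus near the background of all genes.

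The sizes placed the members differently among all genes. In WT, 19.8% of tested genes had a lower log2 change than NEAT1 and 22.1% a lower one than KCNQ1OT1, so both fell by amounts common in this differentiation. MIAT lay above 94.6% of tested genes. The median log2 change of all genes was 0.03, and that of the 552 tested long noncoding genes 0.12, of which 200 rose and 125 fell (58.9% called). In C14R 195 rose and 136 fell (60.0%), and in deletion 211 and 121 (60.1%).

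**Figure D2:**
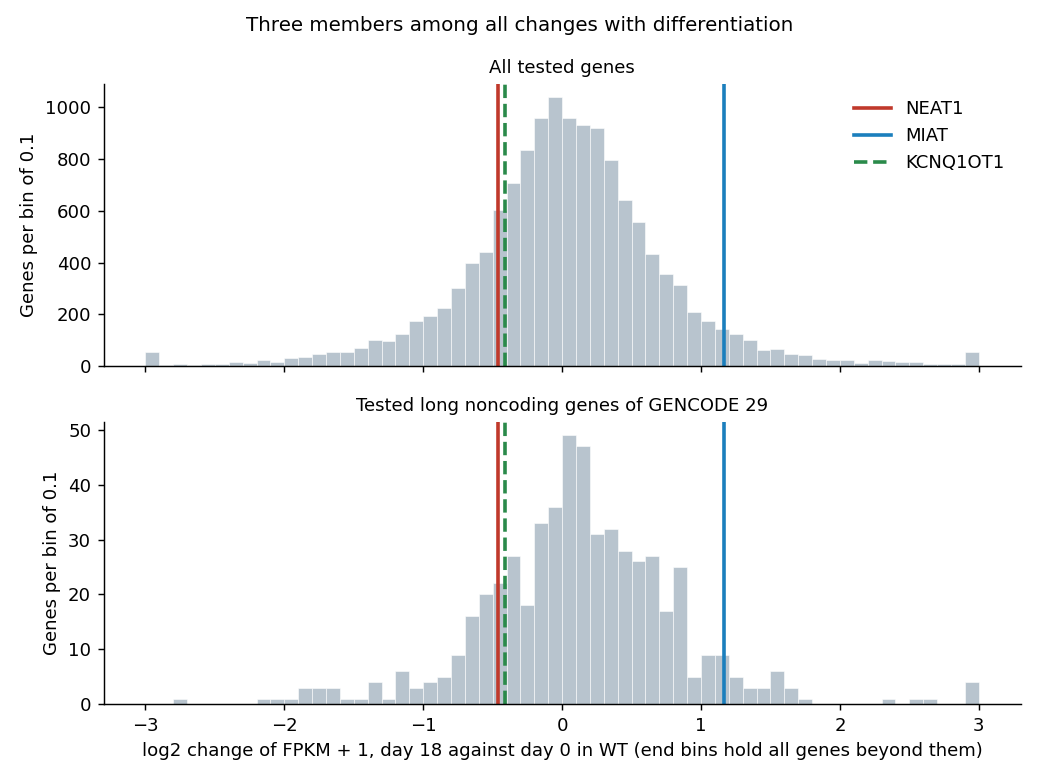
Number of genes per bin of 0.1 (vertical axes) by log2 change of FPKM + 1 between day 18 and day 0 in WT (horizontal axis), for all 13785 tested genes and for the 552 long noncoding ones; vertical lines mark the members. NEAT1 (-0.46) and KCNQ1OT1 (-0.41) lie close together on the left shoulder and MIAT (1.17) in the right tail.

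The scale of the values bears on these directions. When 2349 small RNA symbols were left out and the remaining FPKM were rescaled to a common sum, the median change of all genes in WT moved from 0.03 to 0.21 and the share of rises among called genes from 52.9% to 68.4%. In C14R that median became 0.18 and in deletion 0.22. MIAT then rose by 1.37 in WT (limma adjusted p = 7.6e-14), NEAT1 fell by 0.25 (0.00147) and KCNQ1OT1 fell by 0.24 (0.0402). Before rescaling, the 4 day 0 libraries in which SNORD3A took 51.5% to 58.6% of the sum had 166 to 201 FPKM of NEAT1, and the 5 in which it took 6.87% to 18.6% had 163 to 188. For MIAT the ranges were 13.3 to 16.7 and 14.4 to 16.1 FPKM, and for KCNQ1OT1 4.05 to 5.28 and 4.19 to 5.15. They overlapped for all 3 members.

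NEAT1, the architectural RNA of paraspeckles, lies at chr11:65422774-65445540 on the plus strand of GRCh38 (GENCODE 29). Its long isoform NEAT1-202 is a single exon of 22743 nt that holds 76 overlapping copies of TGTGTG, 3.34 per kb. Of 3162 long noncoding transcripts of at least 2000 nt, 69.5% hold this motif, 3 have at least as many copies, NEAT1-202 included, and 71 are at least as dense. UG repeats are known as binding sites of TARDBP, a paraspeckle protein. The densest window of 100 nt (chr11:65444222-65444321, plus strand, nt 21425 to 21524 of the transcript) is shown, with its 27 overlapping copies as a run of capitals; the match describes the letters and says nothing of binding here.
NEAT1: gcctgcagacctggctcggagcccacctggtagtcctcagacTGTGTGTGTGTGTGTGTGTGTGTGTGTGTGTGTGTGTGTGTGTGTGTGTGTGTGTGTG

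NEAT1 fell with differentiation in all 3 constructs. At day 0 the libraries read 181, 185 and 188 FPKM in WT, 183, 172 and 201 in C14R, and 166, 188 and 163 in deletion. At day 18 they read 127, 136 and 139 in WT, 119, 117 and 126 in C14R, and 105, 112 and 113 in deletion. Every day 18 library was below every day 0 library. The share of all genes separated in this way between the days was not counted. Day 18 means were 72.6% of day 0 in WT (log2 change -0.46, SE 0.06, limma adjusted p = 2.2e-06), 65.1% in C14R (-0.61, adjusted p = 5.7e-08) and 63.8% in deletion (-0.64, adjusted p = 3.2e-08).

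Within day 18, NEAT1 was ordered WT, C14R, deletion with no overlap between any pair of groups, but no pair passed the test. The deletion mean of 110.2 ± 4.30 FPKM (SD, n = 3) was 82.1% of the WT mean of 134 ± 6.47. This log2 difference was -0.28 (95% interval -0.41 to -0.16, limma unadjusted p = 0.000209, adjusted p = 0.0979). C14R, at 121 ± 4.82 FPKM, differed from WT by -0.15 (-0.28 to -0.02, adjusted p = 0.346) and from deletion by 0.13 (0.00 to 0.26, adjusted p = 0.444). Groups that do not overlap were common: 18.9% of tested genes for deletion against WT, 11.1% for C14R against WT and 12.2% for C14R against deletion at day 18. An exact two-sided permutation test of 3 against 3 libraries gave 0.1 for each pair, the smallest p such groups allow. At day 0 the 3 groups overlapped, with log2 differences from WT of 0.00 (-0.12 to 0.13) in C14R and -0.10 (-0.22 to 0.03) in deletion.

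The RNAs of paraspeckle proteins mostly fell together with NEAT1 at day 18. Here and below, values given for proteins are those of their RNA, and protein levels were not measured. Of 20 tested, 18 fell, 1 rose and 1 did not pass in WT, with a median log2 change of -0.47 against 0.03 for all tested genes. The counts were 18 and 1 in both variants as well. Among them, the RNA-binding protein DAZAP1 fell in WT from 39.3 ± 1.16 to 18.95 ± 2.09 FPKM (-1.02), RBMX by 0.77, and RBM14, a protein needed for paraspeckles, by 0.72. The member that rose was CIRBP, a cold-inducible RNA-binding protein (0.55). Outside the rule for naming genes, and picked for their role, the core proteins SFPQ and PSPC1 fell by 0.54 and 0.48 and TARDBP by 0.35, while the direction of NONO, a further core protein, depended on the scaling. On the deposited scale NONO fell by 0.14 in WT, 0.09 in C14R and 0.13 in deletion. With small RNAs left out its values were 0.07 (not called), 0.10 and 0.09 (both called rises), and with quantile normalization 0.03, 0.09 and 0.04, of which that in C14R was a called rise. With small RNAs left out 15 of the 20 fell and 2 rose in WT, with a median of -0.27 against 0.21 for all genes, 15 fell and 3 rose in C14R, and 13 fell and 3 rose in deletion. Over all tested genes 38.2% rose and 34.0% fell in WT, the background for this and the other lists on the deposited scale. With small RNAs left out, 7023 of 13745 tested genes rose and 3239 fell in WT. These counts were 6765 and 3455 in C14R, and 7159 and 3173 in deletion. They are the background for the list counts given with small RNAs left out.

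MALAT1, at chr11:65497688-65506516 on the plus strand, starts 52147 bp beyond the end of NEAT1. It was listed at 0 in every library. RN7SK, a nuclear RNA that every cell uses, was also listed at 0 in all 18, so the listing gives no level for MALAT1 and no comparison was made. RNAs of the proteins of the speckles where MALAT1 RNA is known to gather were measured. Of 24 tested speckle and splicing proteins, 15 fell and 1 rose in WT (median -0.33), 16 fell and 1 rose in C14R, and 16 fell and 0 rose in deletion. SRSF2 fell from 124 ± 3.37 to 58.8 ± 1.43 FPKM (-1.06), and U2AF2, SRSF7 and SRSF3 fell by 0.98, 0.98 and 0.89. With small RNAs left out, 12 fell in each construct, and 5 rose in WT, 4 in C14R and 7 in deletion.

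MIAT, first named for a locus of myocardial infarction, lies at chr22:26646428-26676475 on the plus strand and is known for copies of UACUAAC, the yeast branch point sequence that the splicing factor SF1 binds. The transcript MIAT-218 (10143 nt, 5 exons) holds 7 copies of TACTAAC on its own strand, all in its last exon, at 0.69 per kb. Of the 3162 long noncoding transcripts, 272 (8.6%) hold it at all. The next highest count was 3, and 4 transcripts, MIAT-218 included, were at least as dense. The windows with the first 3 and the last 3 copies are shown (chr22:26671414-26671555 and chr22:26672177-26672231, exon 5, plus strand), with each copy in capitals.
MIAT upstream: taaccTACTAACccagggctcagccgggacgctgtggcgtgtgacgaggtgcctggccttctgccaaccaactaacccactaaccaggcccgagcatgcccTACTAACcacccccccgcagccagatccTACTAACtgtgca
MIAT downstream: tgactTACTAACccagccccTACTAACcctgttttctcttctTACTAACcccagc

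MIAT rose with differentiation in all 3 constructs. At day 0 the libraries read 14.6, 15.6 and 16.1 FPKM in WT, 16.1, 15.7 and 16.7 in C14R, and 13.3, 14.4 and 15.6 in deletion. At day 18 they read 36.0, 35.6 and 36.0 in WT, 34.5, 35.0 and 37.3 in C14R, and 36.9, 36.5 and 37.1 in deletion. Every day 18 library exceeded every day 0 library, and the share of all genes with such a separation was not counted. The day 18 mean was 232% of the day 0 mean in WT (log2 change 1.17, SE 0.05, limma adjusted p = 1.4e-12), 220.1% in C14R (1.09, adjusted p = 3.6e-12) and 256% in deletion (1.30, adjusted p = 3.0e-13).

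The constructs did not differ in MIAT by the test. At day 18 the log2 difference from WT was -0.01 in C14R (95% interval -0.12 to 0.10) and 0.04 in deletion (-0.07 to 0.15), although the deletion libraries all lay above the WT ones. At day 0 it was 0.06 (-0.04 to 0.17) in C14R and -0.09 (-0.20 to 0.01) in deletion. C14R exceeded deletion at day 0 with no overlap, by 0.16 (0.05 to 0.27, limma adjusted p = 0.323), and 21.3% of tested genes also had groups that do not overlap in that comparison. Reads of MIAT and of MIATNB, which overlaps it by 3709 bp on the same strand and averaged 1.65 FPKM, could have been divided between them in a way that cannot be seen from the values.

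RMST, a neural RNA at chr12:97430884-97598415 known to bind SOX2, stayed near 0. It was above 0 in 8 of 18 libraries, which read 0.105 and 0.0678 FPKM in WT and 0.132 in deletion at day 0, and 0.0261, 0.0305 and 0.0523 in WT and 0.0263 and 0.0881 in deletion at day 18. All 6 C14R libraries were among the 10 listed at 0. The highest value, 0.132, was in a day 0 library of deletion whose group mates were both at 0. At day 18 the 3 WT libraries were above 0 and the 3 C14R libraries were not (exact two-sided permutation p = 0.1, the smallest possible). RMST was below the level required for testing. In the limma fit without that requirement C14R and WT differed by -0.05 at day 18 (SE 0.05, adjusted p = 0.776). Adding 1 FPKM before the logarithm compresses differences at such low values. This fit therefore cannot decide whether the groups differed in RMST.

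Transcripts of proteins linked to these RNAs, or to MALAT1, were mostly lower at day 18. Of 10 tested, 8 fell, 1 rose and 1 did not pass in WT, with a median of -0.53. PTBP1, a repressor of neuronal splicing, fell from 66.9 ± 1.67 to 25.2 ± 2.39 FPKM (-1.38). HNRNPA2B1 and ELAC2, a nuclease linked to the processing of the MALAT1 end, fell by 0.68 and 0.65. CELF3, a neuronal splicing protein found with MIAT RNA, rose from 11.3 ± 0.832 to 27.5 ± 0.552 FPKM (1.22), the one rise in the list. The one that did not pass in WT was SOX2 (-0.20, limma adjusted p = 0.0573), named after its value was seen. With small RNAs left out, 7 fell and 1 rose in WT, and 8 fell and 1 rose in each variant.

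**Figure D3:**
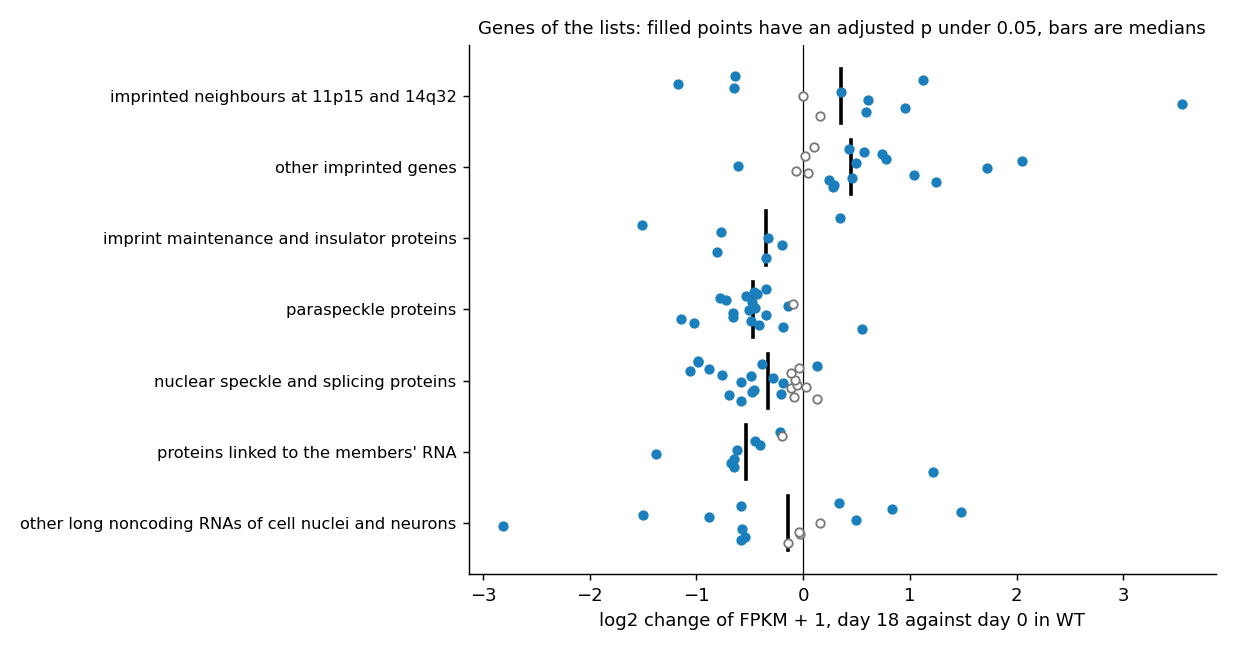
log2 change of FPKM + 1 between day 18 and day 0 in WT (horizontal axis) for each tested gene of 7 lists (rows); filled points have a limma adjusted p under 0.05, open points do not, and black bars are list medians. Genes of paraspeckle proteins and of proteins linked to the members' RNA lie mostly left of 0 (medians -0.47 and -0.53). Imprinted genes lie mostly right of 0 (0.36 and 0.44).

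KCNQ1OT1, the paternally expressed antisense RNA of the 11p15 imprinted region, is annotated as an unspliced transcript of 91667 nt at chr11:2608328-2699994 on the minus strand, wholly inside the potassium channel gene KCNQ1 on the plus strand. The use of strand in counting is not given in the sources used here, so reads of KCNQ1OT1 and of KCNQ1 introns cannot be told apart. At day 0 KCNQ1OT1 read 4.35, 4.90 and 5.11 FPKM in WT, 5.27, 5.15 and 5.28 in C14R, and 4.05, 4.19 and 4.21 in deletion. At day 18 it read 3.07, 3.47 and 3.54 in WT, 5.02, 3.31 and 4.44 in C14R, and 3.67, 3.12 and 3.61 in deletion. Within each construct all day 18 libraries were below all day 0 libraries, and the C14R libraries of day 18 spread most. How many genes separated in this way between the days was not counted, and 72.2% of tested genes passed between days in WT.

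KCNQ1OT1 fell in WT to 70.1% of its day 0 mean (log2 change -0.41, SE 0.10, limma adjusted p = 0.00123). In C14R it fell to 81.3% (-0.26, adjusted p = 0.0249), a call that was lost without C14R replicate 2 of day 18 (-0.12, adjusted p = 0.186), without C14R replicate 1 or 3 of day 0 (0.0559 and 0.0567), and with small RNAs left out (-0.11, 0.352). In deletion the mean was 83.6% of day 0 and the test was not passed (-0.21, 95% interval -0.41 to 0.00, adjusted p = 0.0679). With small RNAs left out the value in deletion was -0.03 (adjusted p = 0.791). The sense gene KCNQ1 moved the other way, from 1.75 to 2.58 FPKM over the day 0 libraries to 2.98 to 4.51 at day 18, with log2 changes of 0.61 in WT (adjusted p = 8.2e-05), 0.37 in C14R and 0.77 in deletion.

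Between constructs, KCNQ1OT1 at day 0 was highest in C14R and lowest in deletion, with no overlap between any pair of groups. C14R differed from WT by 0.11 (95% interval -0.10 to 0.32) and deletion from WT by -0.17 (-0.37 to 0.04). C14R differed from deletion by 0.28 (0.07 to 0.48). Of tested genes, 9.47%, 18.0% and 21.3% also had groups that do not overlap in these comparisons, in this order. The limma adjusted p-values were 1, 0.818 and 0.370. At day 18 C14R exceeded WT by 0.26 (0.05 to 0.47, adjusted p = 0.321), and its groups overlapped because replicate 2, at 3.31 FPKM, lay within the WT range. Without that library the difference was 0.39 and passed (adjusted p = 0.0373), in a fit where 0.914% of genes passed.

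H19, on the minus strand at chr11:1995176-2001470, was listed at 0 in all 18 libraries, as was MIR675, the microRNA made from it. No level was inferred from this listing. IGF2, the paternally expressed growth factor gene whose enhancers H19 shares, was well measured and rose most among the imprinted neighbours. It went from 13.7, 15.9 and 16.3 FPKM at day 0 to 219.7, 175 and 176 at day 18 in WT. In C14R it read 404, 207 and 366 at day 18 and in deletion 292, 235 and 267, against 8.58 to 22.1 over all day 0 libraries. The log2 changes were 3.55 in WT (limma adjusted p = 2.6e-11), 4.04 in C14R and 4.56 in deletion.

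Of 20 imprinted neighbours at 11p15 and 14q32, 11 were tested. Of these 6 rose, 3 fell and 2 did not pass in each construct, with a median of 0.36 in WT. Over all tested genes 38.2% rose and 34.0% fell in WT. SLC22A18, a transporter gene of 11p15, rose from 1.53 ± 0.302 to 4.50 ± 0.511 FPKM (1.12) in WT. CDKN1C, a maternally expressed cell cycle inhibitor of the same region named here after its values were seen, rose by 0.59 in WT (adjusted p = 0.0144, and up to 0.0718 without WT replicate 1 of either day), 1.12 in C14R and 1.07 in deletion. None of the 11 passed in a comparison of constructs or an interaction.

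MEG3, the maternally expressed RNA of 14q32, was barely above 0 and highest in the C14R libraries of day 18. It is annotated at chr14:100779410-100861031 on the plus strand. At day 0 it was listed at 0 in 6 of 9 libraries, and the other 3 read 0.00675 and 0.00652 FPKM in WT and 0.00849 in deletion. At day 18 all 9 were above 0: 0.0372, 0.0116 and 0.0149 in WT, 0.156, 0.142 and 0.129 in C14R, and 0.0451, 0.0224 and 0.0303 in deletion. The C14R libraries lay above all others, and the deletion and WT libraries overlapped. The highest, 0.156 FPKM, stood beside 119 FPKM of NEAT1 in the same library.

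MEG3 did not reach the mean FPKM required for testing. The C14R mean at day 18 was 6.70 times the WT mean and 4.36 times the deletion mean. Without WT replicate 1, the highest of its group, the first ratio was 10.7, a check chosen after seeing the data. When each library was left out in turn, the first ratio lay between 5.46 and 10.7 and the second between 3.77 and 5.39. An exact two-sided permutation test of 3 against 3 libraries gave 0.1 in both cases, the smallest p possible. In the limma fit without the requirement, C14R exceeded WT by 0.16 on the log2(FPKM + 1) scale (adjusted p = 0.00104) and deletion by 0.15 (0.00189), where 0.0467% and 0.0607% of 21412 genes passed. Between days MEG3 rose in C14R by 0.19 (1.2e-07; 53.9% of genes passed) and in deletion by 0.04 (0.0462; 54.6%), and its value in WT was 0.02 (0.258; 54.2%). The interaction of C14R with day was 0.17 (adjusted p = 0.113), so a different response to differentiation did not pass. The estimated depths of the 2 days overlapped at 81.8% to 85.3% and were otherwise higher at day 18, and the part of depth in the number of libraries above 0 was not tested. The day 18 libraries of the 3 constructs had overlapping depths of 92.7% to 99.3% in C14R, 85.9% to 100% in WT and 81.8% to 99.3% in deletion.

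The RefSeq table of GRCh38.p14 promoters, windows from 250 bases before to 50 after a start, held 5 of the 7 members. Because the differentiation medium contained a cyclic AMP analogue, the windows were searched for TGACGTCA, the full cyclic AMP response element, which reads the same on both strands. It was in all 3 overlapping MEG3 windows, as 1 shared copy that starts 50, 60 or 74 bp before the respective start, and in none of the windows of MALAT1, H19, RMST and MIAT. Of 35116 windows of 300 bp, 649 (1.85%) hold it. The MEG3 window at chr14:100825858-100826157 (plus strand) is shown with the element in capitals, as 1 of the 3 MEG3 windows that have it. The match is a description of the sequence.
MEG3: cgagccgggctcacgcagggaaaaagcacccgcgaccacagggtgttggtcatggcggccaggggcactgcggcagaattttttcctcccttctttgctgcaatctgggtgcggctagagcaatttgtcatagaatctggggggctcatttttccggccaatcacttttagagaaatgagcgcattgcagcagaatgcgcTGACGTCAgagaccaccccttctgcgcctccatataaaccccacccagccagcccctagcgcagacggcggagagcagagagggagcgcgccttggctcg

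The paternally expressed coding genes DLK1 and RTL1 of the MEG3 domain moved in opposite directions. DLK1, a membrane protein of progenitor cells, read 14.3, 16.7 and 18.2 FPKM in WT at day 0 and 58.4, 24.5 and 24.1 at day 18. At day 18 it read 119.5, 34.0 and 149 in C14R and 89.1, 55.8 and 68.1 in deletion. It rose by 2.21 in C14R and 2.17 in deletion (limma adjusted p = 8.4e-05 and 0.000102). The rise in WT (0.96, adjusted p = 0.0392) rested on replicate 1 of day 18, without which it was 0.55 (0.228), and was also lost when any WT library of day 0 was left out. RTL1, a retrotransposon-derived gene, fell in WT from 12.7 ± 1.07 to 5.16 ± 1.35 FPKM (-1.17, adjusted p = 5.8e-06). In C14R it fell by 0.63, or by 0.41 without replicate 2 of day 18, and in deletion by 0.42 (0.028), a call lost without replicate 2 or 3 of either day (adjusted p up to 0.106) and with small RNAs left out (-0.23, 0.206).

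The differences of C14R from WT at day 18 were 1.35 for DLK1 (limma adjusted p = 0.187), 0.67 for RTL1 (0.134) and 0.72 for IGF2 (0.164), none of which passed. MEG9, a further noncoding RNA of 14q32 that was below the level for testing, read 0.0258 to 0.203 FPKM at day 0 and 0.320 to 0.733 at day 18, and its C14R and WT ranges at day 18 overlapped.

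**Figure D4:**
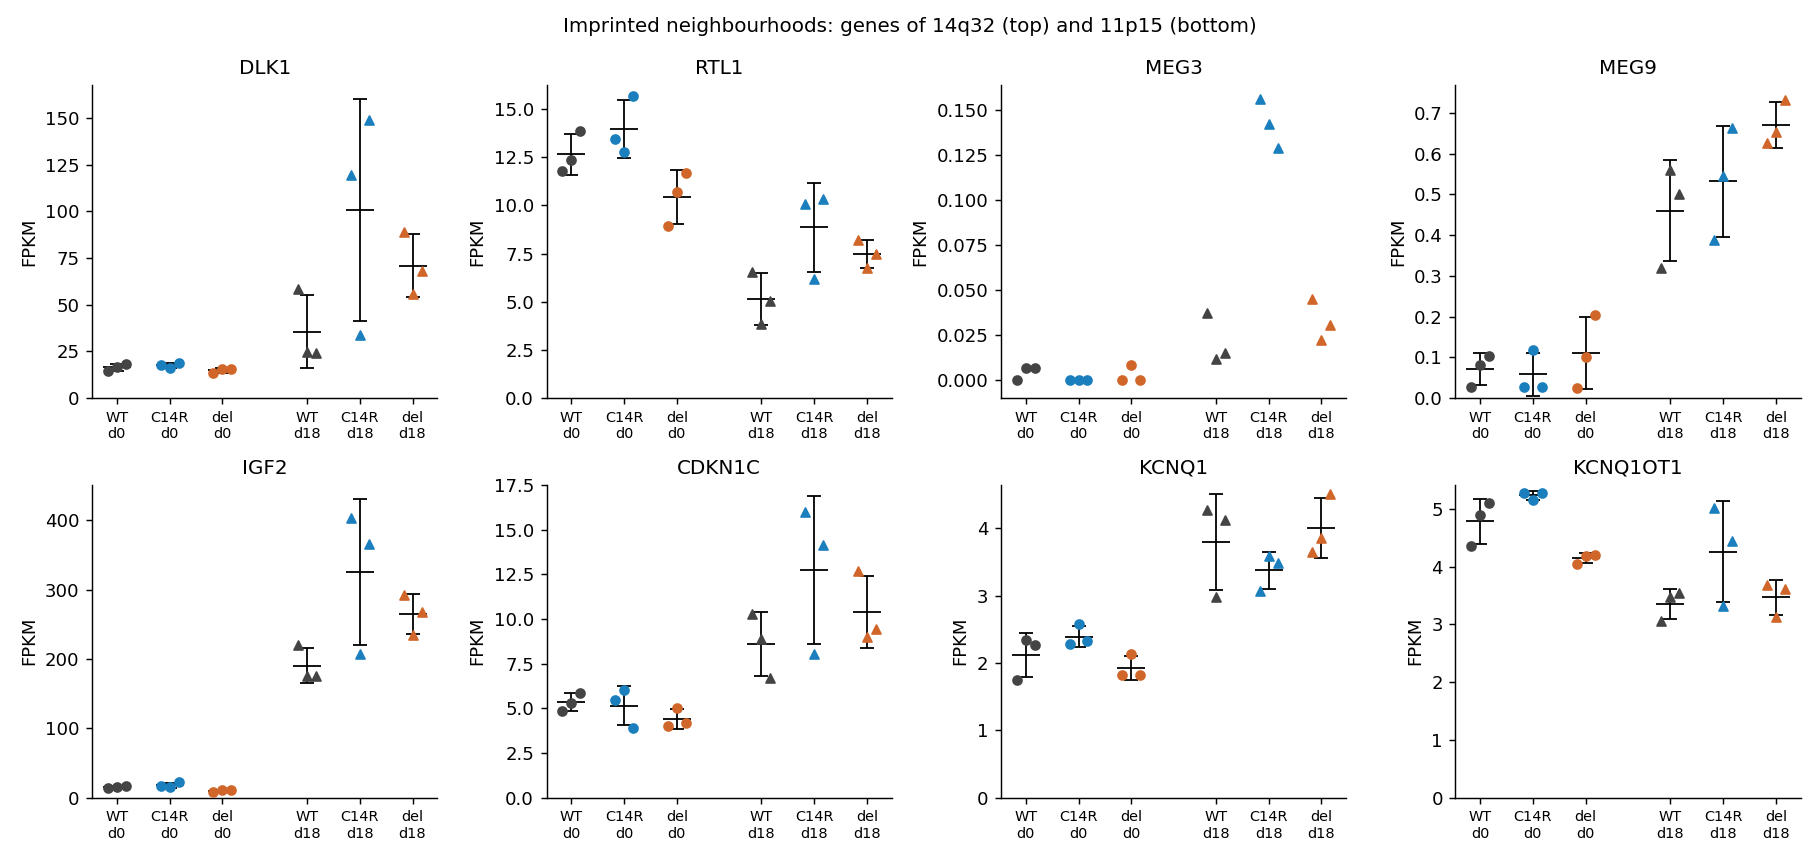
FPKM by library (vertical axes, linear, with a different range in each panel) of 4 genes of 14q32 (top) and 4 of 11p15 (bottom) by construct and day; points are libraries and bars the mean and SD of 3, not drawn for MEG3. IGF2 and DLK1 are widest in C14R at day 18, where replicate 2 is the lowest point, and KCNQ1 and KCNQ1OT1 move in opposite directions between the days.

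Imprinted genes elsewhere also mostly rose. Of 18 tested, 13 rose, 1 fell and 4 did not pass in WT (median 0.44), and 12 rose and 3 fell in each variant. PEG10, a retrotransposon-derived gene, went from 59.4 ± 0.756 to 249.5 ± 7.15 FPKM (2.05), NAP1L5 from 9.24 ± 0.682 to 32.7 ± 1.60 (1.72), GNAS, which encodes a G protein subunit, from 769 ± 8.42 to 1825 ± 61.8 (1.25), and L3MBTL1 rose by 1.04. Of the transcripts of DNA methylation, imprint maintenance and insulator proteins, 7 were tested. Among these 6 fell and 1 rose in WT, and 5 fell and 1 rose in each variant. UHRF1, which brings the maintenance methyltransferase to replicated DNA, fell from 27.9 ± 0.864 to 9.16 ± 0.420 FPKM (-1.51), DNMT1, that enzyme, by 0.81 and TRIM28 by 0.77, while the zinc-finger protein ZNF445 rose by 0.35. With small RNAs left out, 15 of the 18 imprinted genes rose in WT and 14 in each variant. Of the 7 transcripts of methylation, imprint maintenance and insulator proteins, 5 then fell and 1 rose in WT. In C14R 3 fell and 1 rose, and in deletion 3 fell and 2 rose.

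Other long noncoding RNAs of nuclei and neurons went in both directions. Of 15 tested, 4 rose, 7 fell and 4 did not pass in WT, with a median of -0.15. With small RNAs left out this median was 0.05, against 0.21 for all tested genes. The median was -0.67 in C14R and -0.32 in deletion, and -0.52 and -0.12 with small RNAs left out. LINC00152 fell from 24.6 ± 4.28 to 2.73 ± 1.11 FPKM (-2.81), and the microRNA host genes MIR17HG and MIR100HG fell by 1.50 and 0.88. MIR99AHG, another microRNA host gene, rose from 4.11 ± 0.382 to 13.2 ± 0.658 FPKM (1.48). In C14R 4 rose and 9 fell, and in deletion 5 and 8.

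The genes with the most similar profiles were found by Pearson correlation of log2(FPKM + 1) over the 18 libraries, a description in which the 2 days form separate clusters. For NEAT1 they were NXT2 (r = 0.975), ANP32A-IT1 (0.973) and DNM3OS (0.971), and after subtraction of the 6 group means r was 0.65, 0.75 and 0.43. For MIAT they were CNTNAP5, SCD and NELL2 (0.998, 0.997 and 0.997), with 0.71, 0.70 and 0.61 within groups. A total of 1811 genes exceeded 0.9 for NEAT1 and 3392 for MIAT. For KCNQ1OT1 there were 7 such genes, led by EML5, HMGB3 and SYNE2 (0.919, 0.917 and 0.916), with 0.69, 0.75 and 0.69 within groups.

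Across all comparisons of constructs, 0 of the 3 tested members passed. The comparisons with WT at a given day share its libraries, and so do the interactions. Of all tested genes, 0.0% passed for C14R against WT at day 0 (0 genes in limma, and 388 at an unadjusted p under 0.05), 0.029% for deletion against WT at day 0, 0.0363% and 0.0725% for C14R and deletion against WT at day 18, and 0.058% and 0.029% for C14R against deletion at day 0 and day 18. For the interaction with day the shares were 0.0% in C14R (0 genes, and 790 unadjusted) and 0.0145% in deletion. The interaction values were -0.15 and -0.18 for NEAT1 in C14R and deletion (limma adjusted p = 0.872 and 0.660), -0.08 and 0.13 for MIAT (0.953 and 0.762), and 0.15 and 0.20 for KCNQ1OT1 (0.952 and 0.833). In C14R the 95% intervals of these interactions were -0.33 to 0.02 for NEAT1, -0.23 to 0.08 for MIAT and -0.14 to 0.44 for KCNQ1OT1. In deletion they were -0.36 to -0.004 for NEAT1, -0.02 to 0.29 for MIAT and -0.09 to 0.50 for KCNQ1OT1. Only the NEAT1 interval in deletion did not contain 0 (limma unadjusted p = 0.0454), and this interaction did not pass after adjustment. The size of interaction that these libraries could detect was not tested.

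**Figure D5:**
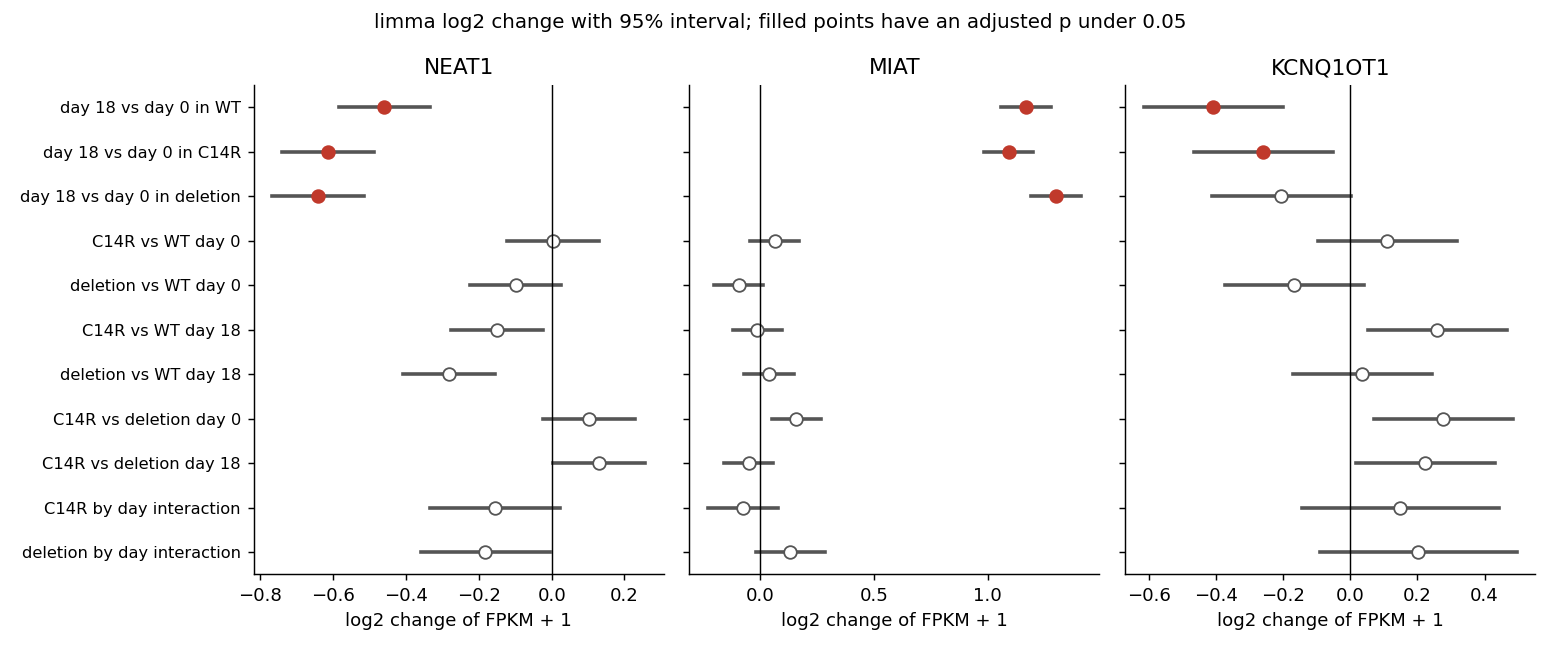
limma log2 change of FPKM + 1 (horizontal axes) with its 95% interval for NEAT1, MIAT and KCNQ1OT1 in 11 comparisons (rows); filled points have an adjusted p under 0.05. Filled points are confined to the 3 comparisons of day 18 with day 0, with the deletion value of KCNQ1OT1 (-0.21) left unfilled.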

How the data were processed

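The deposited table held FPKM, which the authors made per gene symbol and library, per the file headers and the name of the table. The submitters' processing notes name TopHat2, STAR, Cufflinks 2.2.1 and hg38 without a role or order. The annotation and the use of strand are not given in the sources used here. Per the labels' protocols, total RNA was rRNA-depleted. Columns were matched to samples by title, with 3 libraries in each of 6 groups.

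Genes with a mean FPKM of at least 1 (13785 of 26372) were fitted as log2(FPKM + 1) with limma 3.58.1 in R 4.3.3, as 6 group means with a variance trend, with Benjamini-Hochberg adjustment in each of 11 comparisons at 0.05. On simulated data for day 18 against day 0 in WT (13785 genes), 76% of changes of 0.5 and 97% of changes of 1 on the log2 scale were recovered, with 10 false calls. Only 100 genes were given each size of change, whereas 72.2% of genes passed in the real comparison. These rates therefore do not give the power of the comparisons reported here, and no comparison of constructs was simulated. Alternatives were 3 scalings, a pseudocount of 0.1, a mean of at least 5 or no filter, the replicate block, no trend, only the compared libraries, and each library left out.

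Named genes were ZNHIT3, the members, the 3 most correlated genes of each tested member, and from each list up to 4 with the largest change in WT; other named genes are marked in the text or given with a list. A further gene that fits this rule is not reported here. Members and lists were chosen with earlier results of these data known. Coordinates and transcripts came from GENCODE 29 on GRCh38, the build hg38 refers to, and promoters from RefSeq on GRCh38.p14.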

Additional observations from a re-analysis of the deposited data

How the results depend on the processing

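NEAT1 and MIAT kept their calls in all 184 fits run for each over the 11 comparisons, and KCNQ1OT1 in 163 of 173; no called value reversed. KCNQ1OT1 lost its call in 5 fits, all between days in C14R, and gained one in 5: between days in deletion with median-of-ratios scaling (-0.25, limma adjusted p = 0.0306), quantile normalization (-0.28, 0.0289), only the compared libraries (-0.21, 0.0344) and, chosen after seeing the data, without C14R replicate 1 of day 18 in the shared spread (-0.21, 0.0353), and between C14R and WT at day 18 without C14R replicate 2 (0.39, 0.0373). The cause was not tested. It lost the C14R call also with only the compared libraries (-0.26, 0.0931), and was not tested at a mean FPKM of at least 5. The number of members called for C14R against WT at day 18 went from 0 to 1 with no filter (MEG3) and lay between 0 and 1 when a library was left out; for C14R against deletion at day 18 it went from 0 to 1 with no filter (MEG3). Replicate numbers were shared between groups, and same-numbered libraries deviated together (r over 0.1) in 1 of 9 pairs at day 0 and 1 of 9 at day 18. Differently numbered libraries did so in 8 of 18 pairs at day 0 and 4 of 18 at day 18. This correlation over all genes cannot show whether a number marks a shared batch. At day 0 SNORD3A took 58.6%, 52.9% and 51.5% of the FPKM sum in replicate 1 of WT, C14R and deletion. It took 7.69%, 7.55% and 6.87% in replicate 2, and 8.63%, 57.3% and 18.6% in replicate 3. A shared batch was not tested. With the replicate block the same members were called in every comparison (between days in WT, 3 members: NEAT1 adjusted p = 2.8e-06, MIAT 3.5e-12, KCNQ1OT1 0.00156). FPKM without counts leave the depth behind MEG3 and RMST unknown.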
